A study of Mus musculus with 6 samples.

Results

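The genes described here encode the proteins of the mitochondrial ribosome, and they were measured in mouse aortas with and without knockout of Apoe. Members were all probes whose symbol in the authors' intensity table begins with Mrpl (large subunit) or Mrps (small subunit) followed by a digit. This gave 83 of 39362 probes, which stand for 72 of 25721 gene symbols on the arrays. The large subunit held 50 probes for 43 genes, and the small subunit held 33 probes for 29 genes. The family was chosen by the fold changes between ApoE KO and wild type aortas on these same arrays, and Mrps12 was picked from it by the same values. All values of that comparison for the members are therefore a description. This also holds for the adjusted p threshold used below to mark single probes, which is no independent test of the members.

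The mitochondrial ribosome sits in the matrix and translates the few messages of the mitochondrial genome, all of which encode core subunits of the respiratory chain and of ATP synthase. Its small subunit binds the message and reads codons, and its large subunit joins amino acids and passes the growing chain towards the inner membrane. All of its proteins are encoded in the nucleus, made in the cytosol and imported, where they assemble on ribosomal RNA that the mitochondrial genome supplies. Loss of single proteins of either subunit is known to impair respiration, with severe effects in heart and other muscle.

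The study set 3 aortas of ApoE KO mice, which lack the apolipoprotein that clears remnant lipoproteins from plasma, against 3 aortas of C57BL6 wild type (WT) mice, all fed a high-fat diet. Per the labels, lesions of atherosclerosis were present in the knockout aortas and absent from the wild type ones. Each aorta's RNA carried Cy5 and was hybridised on a 2-colour Agilent array against Cy3-labelled RNA from aortas of wild type C57BL6 mice on the same diet, the common reference. The labels name biological replicates, give the genetic background of the aortas' own RNA as C57BL6 db/+ in both groups and that of the reference as C57BL6, and state neither the Apoe allele nor any pooling. The labelled age was 32 weeks for ApoE KO and 24 weeks for WT, although the protocol describes 16 weeks of diet from 8 weeks of age for both, and array headings that could not be tied to a sample speak of 24 weeks of diet and of a vehicle. In the source names of the Cy5 channel all 6 samples are called db/+ at 9 weeks, with 1 animal number given to both WT replicate 2 and WT replicate 3. The effect of genotype therefore cannot be told apart from that of age, diet length or a vehicle.

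Arrays held values for 39480 to 39551 probes each, and their small number sets the limit to precision. Values are log2 ratios of an aorta's own RNA to the reference, and a fold change is the ApoE KO mean minus the WT mean of these ratios, with the standard error (SE) of a limma fit over all probes. A probe's level is its mean intensity in arbitrary units. It serves only to mark dim probes, since intensities were written in steps of 0.01 and ratios of dim probes rest on few steps. Of the 83 member probes, 56 reached a level of 0.5. For each gene the probe with the highest level was used. A probe is said to be called when its Benjamini-Hochberg adjusted p over all 39362 probes is under 0.05 (two-sided).

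Smooth muscle markers were bright in the aortas (Acta2, smooth muscle actin, had a level of 189), and 9 of 12 were called lower in ApoE KO. Their summed level was 439 to 500 in the knockout arrays and 730 to 779 in the wild type arrays. Of 21 macrophage markers 20 were called higher, with a summed level of 322 to 376 in ApoE KO and 69.4 to 88.0 in WT. Over all probes 6.44% were called higher and 7.62% lower, and 14.3% and 16.4% of those with a level of at least 0.5. None of the 20 cardiac markers was called (1 higher and 1 lower at an unadjusted p under 0.05), and their summed level ranged from 38.5 to 88.4 in ApoE KO and from 36.0 to 61.8 in WT. No marker of these 3 lists had a level of 0. Apoe itself had log2 ratios of -1.31, -1.21 and -1.31 in ApoE KO and 0, -0.32 and 0.12 in WT, so the groups did not overlap and the direction followed the labels (fold change -1.21 ± 0.13, SE). The sources used here do not say whether its probe lies within the deletion.

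Most transcripts of the mitochondrial ribosome lay close to their wild type level in the knockout aortas. The median fold change over the 72 genes was -0.039 on the log2 scale, with quartiles at -0.098 and 0.045. It was 0.0053 when each array was centred on its bright probes. Of the 72 genes, 52 differed by under 0.1 and 70 (97.2%) by under 0.2 on the log2 scale. Mrps12 was the only gene, and its probe the only member probe, to differ by 0.3 or more, a size that 9.51% of all probes and 21.3% of those with a level of at least 0.5 reached. Over all 9496 probes with a level of at least 0.5, the median was -0.046, the quartiles were -0.16 and 0.11, and 65.0% differed by under 0.2. Without Mrps12, the fold changes of the 71 other genes ran from -0.18 for Mrpl35 to 0.21 for Mrps10. The markers of macrophages and smooth muscle given above moved by far more between the same arrays, and the part of cell makeup in the values of the family was not tested. In whole aortas, fewer cells of a type and less RNA per cell cannot be told apart.

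**Figure D1:**
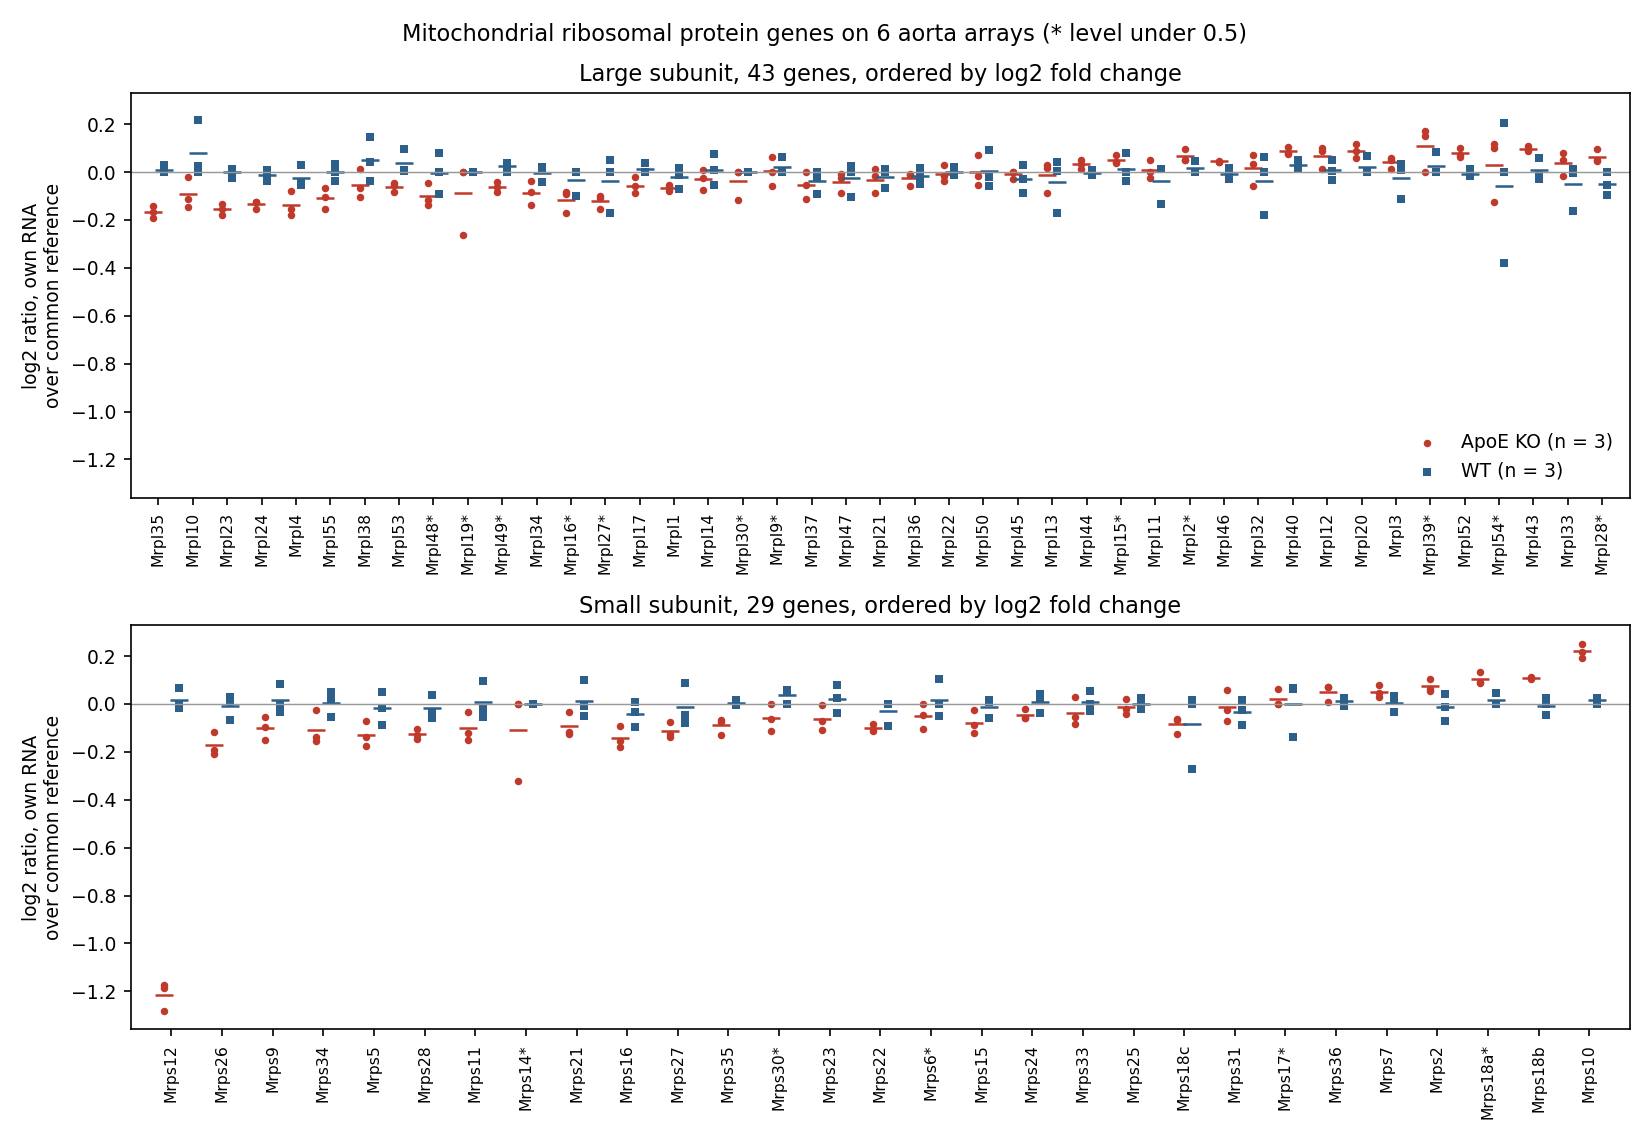
Log2 ratio of own RNA over the common reference (y axis) for the 43 large subunit genes and the 29 small subunit genes (x axis, ordered by fold change), with 1 point per array, a short line at each group's mean and an asterisk at genes with a level under 0.5. All genes other than Mrps12 had ApoE KO and WT means within 0.21 of each other, whereas the 3 ApoE KO values of Mrps12 lay between -1.28 and -1.17.

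Mrps12 encodes the protein of the small subunit that lies next to the decoding centre, where codon and anticodon pair. Its bacterial counterpart is the ribosomal protein in which mutations give resistance to streptomycin. Its log2 ratio was -1.28, -1.17 and -1.19 in ApoE KO replicates 1, 2 and 3 and 0, -0.015 and 0.066 in WT replicates 1, 2 and 3. The groups were far apart, and each was tight, with an SD of 0.060 in ApoE KO and 0.043 in WT. The fold change was -1.23 ± 0.040 (SE, n = 3 per group), or 2.35-fold lower in ApoE KO.

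The value of Mrps12 rested on a moderate signal. Its level was 0.783, and the 3 wild type arrays, which could not be matched one by one to the replicates in the intensity table, held 0.93, 0.95 and 0.85 for the reference beside 0.93, 0.94 and 0.89 for the aorta's own RNA. The difference between the groups amounted to 52.8 of the steps of 0.01 in which intensities were written. Only 1 probe measured the gene, so no second probe stands beside it. The sequence of this probe was not available here. Whether a sequence difference between mouse strains lies under it was therefore not tested. Only 3 probes of all 39362 had a lower fold change, and 2 of the 9496 with a level of at least 0.5. Probes with a fold change of Mrps12 or lower made up 0.0102% of all probes and 0.0316% of the brighter ones, a share that describes the choice of this gene and supports nothing. Under the alternatives tried, its fold change ran from -1.25 to -1.06.

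Mrps12 lay apart from its own subunit in every knockout array. The median fold change of the 28 other small subunit genes was -0.069, so Mrps12 stood 1.16 below them on the log2 scale (a difference of -1.16). On single arrays, its ratio minus their median was -1.19, -1.14 and -1.12 in ApoE KO and 0.0015, -0.017 and 0.066 in WT. The lowest gene after it, Mrpl35 of the large subunit, had a fold change of -0.18, which left a gap of -1.05 with no member of either subunit in between.

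**Figure D2:**
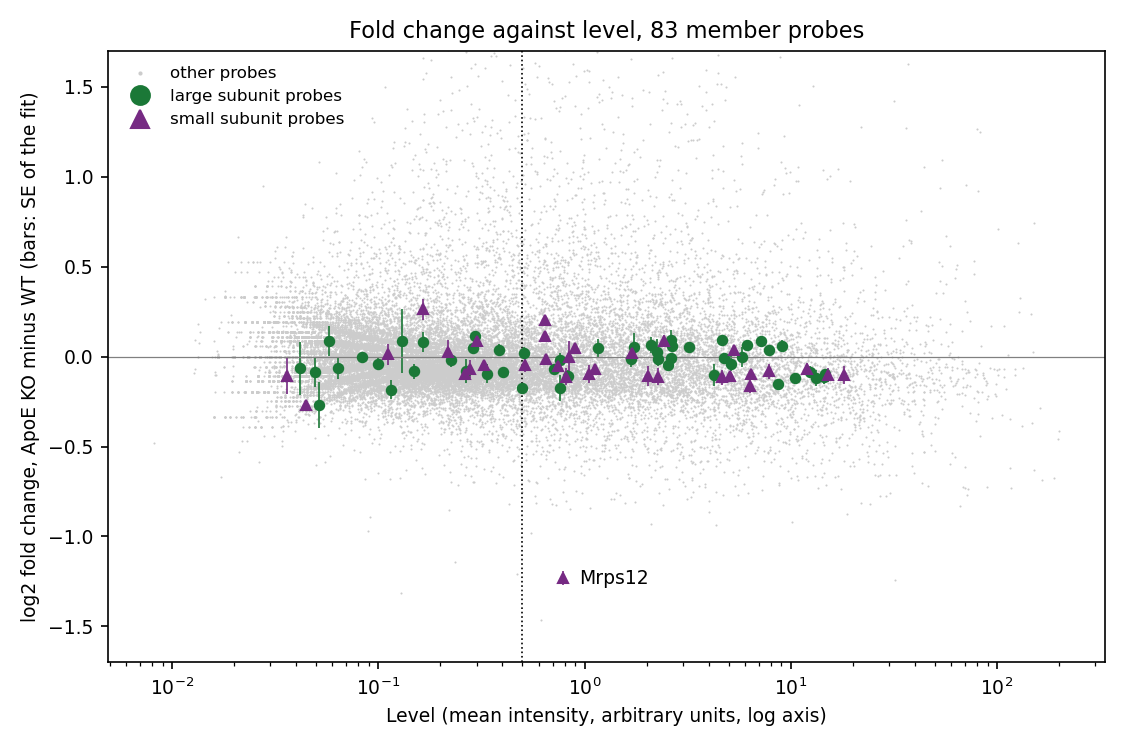
Log2 fold change, ApoE KO minus WT (y axis, bars give the SE), against the level of the probe (x axis, mean intensity in arbitrary units, log scale) for the 83 member probes and all other probes, with the level of 0.5 as a dotted line. Mrps12 lies at -1.23, below the band that holds the other members at every level; the y axis ends at 1.7 in either direction, which leaves 110 probes outside.

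Mrps12 lies on chromosome 7 head to head with Sars2, the gene of the mitochondrial seryl-tRNA synthetase, so that 1 short stretch of DNA precedes both genes. It is shown because the transcripts on its 2 sides had different values. The stretch is chr7:28741822-28741956 (GRCm38.p6, minus strand, from the RefSeq promoter table), has 135 bases with 48.1% G and C, and reads towards Mrps12 from left to right with each CCAAT in capitals.
Mrps12 to Sars2: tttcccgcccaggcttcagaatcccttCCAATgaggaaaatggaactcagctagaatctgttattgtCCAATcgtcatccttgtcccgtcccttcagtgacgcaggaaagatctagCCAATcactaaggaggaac
CCAAT, the box that the factor NF-Y is known to bind, occurred 3 times, all on the strand of Mrps12, beginning 108, 68 and 19 bases before its start. In windows of the same place and length before 27025 mouse genes, 23.7% held a CCAAT on either strand and 1.04% held 3 or more. A promoter entry was found for 63 of the 72 member genes. Of these, 17 (27.0%) held a CCAAT, and Mrps12 was the only one with 3. The letters CCGGAAG (an ETS site) and AAGATGGC (a YY1 site), searched on both strands, were not found in this window. They occurred in 5.44% and 0.792% of all windows and in 12 and 2 of the 63 member windows. A match in these letters is not a binding site.

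On the other side of this stretch, Sars2 did not share the low value of Mrps12. Its log2 ratio was 0.056, 0.11 and 0 in ApoE KO and 0, -0.056 and 0 in WT, so the groups overlapped at 0. Its fold change was 0.073 ± 0.034 (SE) and was not called. With a level of 0.255 it was dimmer than the limit of 0.5, and its difference spanned 1.30 steps of intensity.

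The nearest measured genes on either side of Mrps12 had fold changes far smaller in size than its own. On the side of Apoe, Fbxo17 and Fbxo27, both F-box proteins of ubiquitin ligases, had fold changes of 0.014 and -0.15, and the acid phosphatase gene Acp7 had -0.13. Beyond Sars2, Nfkbib, an inhibitor of NF-kappaB, had -0.14, and Sirt2, a deacetylase, had -0.071. Fbxo17, Fbxo27 and Nfkbib were dim, with levels of 0.0835, 0.382 and 0.134. Their differences spanned 0.0780, 3.90 and 1.30 intensity steps, so rounding limits what they show. Acp7 and Sirt2 were brighter, with levels of 1.02 and 2.72. None of these 5 genes was called, while genes farther out, within 10 places, included called ones in both directions, from -0.44 for Actn4, a cytoskeletal actinin, to 1.24 for Gmfg, a glia maturation factor of blood cells (both chosen after their values were seen). Apoe lies on the same chromosome, with 163 measured genes between it and Mrps12.

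**Figure D3:**
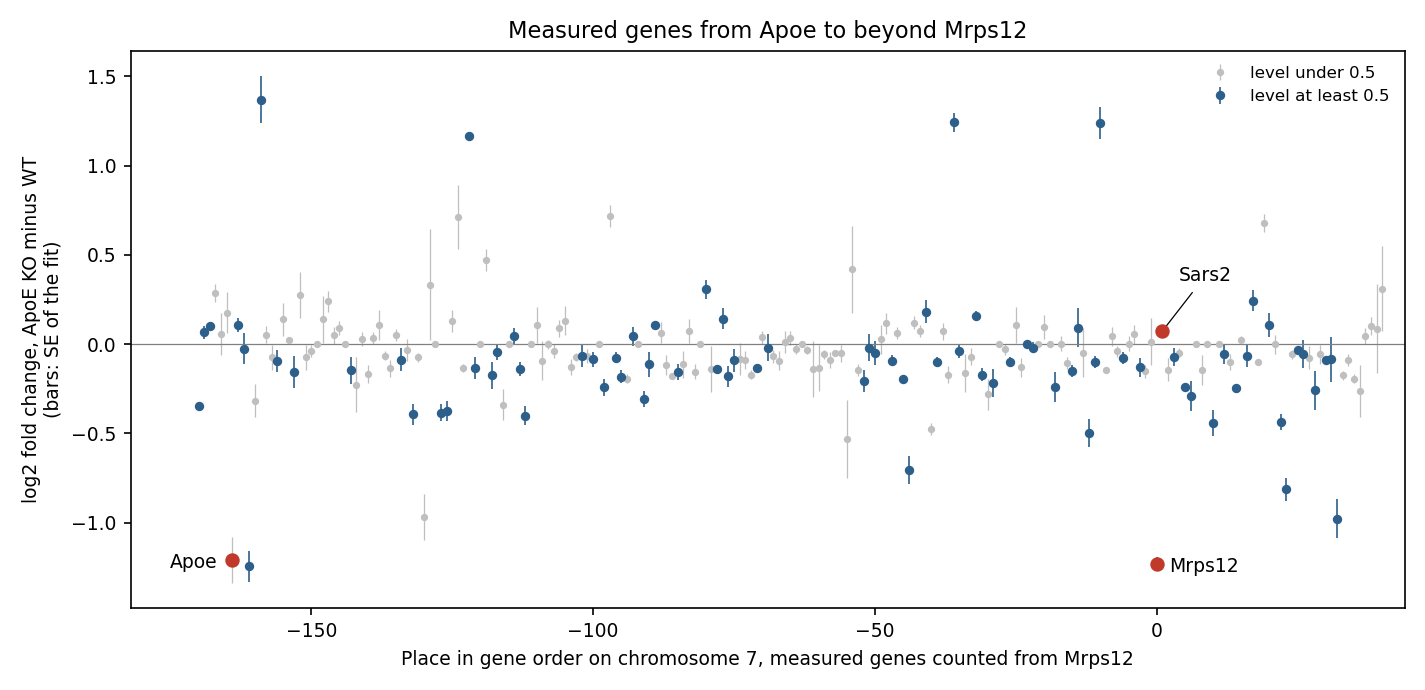
Log2 fold change, ApoE KO minus WT (y axis, bars give the SE), of the measured genes of chromosome 7 by their place in gene order counted from Mrps12 (x axis). Apoe at -1.21 and Mrps12 at -1.23 stand with 163 measured genes between them, of which 59 have a level of at least 0.5. These 59 have a median of -0.097, and 8 (13.6%) lie at -0.3 or lower. Of genes with this level, 13.4% on the rest of the chromosome and 8.94% on other chromosomes lie as low. Ratios of the dimmer genes are limited by rounding. Bcam, which is among the 59 genes, lies lower than Apoe and Mrps12 at -1.24. Sars2, next to Mrps12, lies at 0.073.

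Of the 83 member probes, 3 were called higher, 7 lower and 73 not at all. These 10 of 83 stand beside 14.1% of all probes called (6.44% higher and 7.62% lower). With a level of at least 0.5, 3 of 56 members were called higher and 5 lower, beside 30.6% of all such probes (14.3% higher and 16.4% lower). Nothing is read from these shares, since the comparison itself chose the family. The ApoE KO values lay wholly above the WT values for 12 member probes, wholly below for 17, and overlapped for 54. Over all probes 28.4% did not overlap (10.7% above and 17.7% below). With a level of at least 0.5, 8 of 56 members lay above and 14 below, and 59.2% of all such probes did not overlap (23.4% above and 35.8% below). For 38 of the 83 members the difference was smaller than 3 steps of intensity, and 26 of these 38 had a level under 0.5. The calls besides Mrps12 rested on small differences with a small spread: with quantile normalization between arrays the calls of all 8 other genes with a called main probe were lost, and 0 probes were called higher by limma (3 at an unadjusted p under 0.05).

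In the large subunit, 25 of 43 genes lay below 0 and 18 above it, and the median fold change was -0.013, a sign that turned with centring (0.031, with 15 genes below 0 and 28 above it). The range ran from -0.18 to 0.11. The lowest were Mrpl35, Mrpl10, Mrpl23, Mrpl24, Mrpl4 and Mrpl55, taken among genes with a level of at least 0.5.

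Mrpl35 is 1 of the proteins of bacterial origin on the large subunit. Its log2 ratio was -0.17, -0.14 and -0.19 in ApoE KO and 0, 0.028 and 0 in WT. The groups did not overlap, and it was called lower at -0.18 ± 0.017 (SE), with a level just at the limit of 0.5 that put its difference at 5.93 intensity steps. Mrpl10 carries the stalk to which translation factors bind. Its ratios were -0.15, -0.020 and -0.11 in ApoE KO and 0, 0.026 and 0.22 in WT. WT replicate 3 alone stood high, and the fold change of -0.17 ± 0.074 was not called; without that replicate it was -0.11.

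Mrpl23 and Mrpl24 belong to the part of the large subunit around the exit of the peptide tunnel. Mrpl23 had ratios of -0.18, -0.13 and -0.16 in ApoE KO and -0.024, 0.0061 and 0.015 in WT. Mrpl24 had -0.15, -0.13 and -0.13 in ApoE KO and -0.037, -0.015 and 0.0095 in WT. Both were bright, neither overlapped between groups, and both were called lower, at -0.15 ± 0.017 and -0.12 ± 0.016. The call of Mrpl24 was lost with centring and without WT replicate 2.

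Mrpl4, an ancient protein that reaches into the core of the subunit, was the only gene with 2 bright probes. Its main probe read -0.18, -0.079 and -0.15 in ApoE KO and -0.047, -0.054 and 0.031 in WT. The second read -0.16, -0.043 and -0.11 in ApoE KO and -0.011, -0.020 and 0.080 in WT. The probes matched closely, with fold changes of -0.11 and -0.12 that differed by 0.0070, and neither was called although the groups did not overlap on either.

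Mrpl55, a protein that mitochondria added to the ribosome, had ratios of -0.15, -0.10 and -0.065 in ApoE KO and 0.034, 0 and -0.035 in WT. Its fold change of -0.11 ± 0.031 was not called. Mrpl49, also without a bacterial counterpart, had ratios of -0.082, -0.042 and -0.064 in ApoE KO and 0, 0.033 and 0.039 in WT. It was called lower at -0.087 ± 0.016, with a level of 0.401 and a difference of 2.39 intensity steps. That call was lost with centring, with the replicate block, and without ApoE KO replicate 1 or 3 or WT replicate 2 or 3.

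The highest large subunit genes with a level of at least 0.5 were Mrpl33, Mrpl43, Mrpl52, Mrpl3, Mrpl20 and Mrpl12. Mrpl52, a protein specific to mitochondrial ribosomes, had ratios of 0.063, 0.10 and 0.070 in ApoE KO and -0.014, 0.012 and -0.015 in WT. It was the single large subunit probe called higher, at 0.084 ± 0.014, and the call was lost when any array other than ApoE KO replicate 2 was left out, and in the fit restricted to a level of at least 0.5. Mrpl43, likewise specific to mitochondria, read 0.095, 0.11 and 0.089 in ApoE KO and -0.0061, 0.058 and -0.029 in WT. Its groups did not overlap and its fold change was 0.090 ± 0.025, which was called with centring and without WT replicate 2 but not otherwise.

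Mrpl33, of bacterial origin, had ratios of 0.052, -0.017 and 0.079 in ApoE KO and 0.011, -0.0053 and -0.16 in WT. The groups overlapped and WT replicate 3 stood low, so that the fold change of 0.090 ± 0.058 fell to 0.035 without it. Mrpl3, which lies near the catalytic centre, showed the same layout, with 0.057, 0.015 and 0.050 in ApoE KO and 0.0071, 0.032 and -0.11 in WT (0.065 ± 0.044, and 0.021 without WT replicate 3).

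Mrpl20 helps to fold the ribosomal RNA in bacteria. Its ratios were 0.086, 0.058 and 0.12 in ApoE KO and 0.0024, 0.066 and 0 in WT (0.064 ± 0.026, and -0.0026 with quantile normalization). Mrpl12, the protein of the stalk that also binds the mitochondrial RNA polymerase, had 0.014, 0.099 and 0.090 in ApoE KO and -0.033, 0.0062 and 0.050 in WT (0.059 ± 0.034). For both the groups overlapped and neither was called.

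In the small subunit, 21 of 29 genes lay below 0 and 8 above it, and the median fold change was -0.071. With centring it was -0.026, with 19 genes below 0 and 10 above it. The lowest genes after Mrps12, among those with a level of at least 0.5, were Mrps26, Mrps9, Mrps34, Mrps5 and Mrps28, and none of these 5 was called.

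Mrps26, a protein specific to mitochondrial ribosomes, had ratios of -0.21, -0.12 and -0.19 in ApoE KO and -0.069, 0.0086 and 0.029 in WT. Its groups did not overlap, and its fold change of -0.16 ± 0.039 was called only when the fit was restricted to probes with a level of at least 0.5. Mrps9, whose tail reaches towards the transfer RNAs, read -0.095, -0.15 and -0.053 in ApoE KO and -0.0030, 0.082 and -0.035 in WT (-0.11 ± 0.042). Its groups lay apart by a narrow margin.

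Mrps34, whose loss in mice is known to damage heart and liver, had -0.14, -0.026 and -0.16 in ApoE KO and 0.019, -0.055 and 0.051 in WT (-0.11 ± 0.048). Mrps5, a protein of the mRNA entry channel, had -0.18, -0.072 and -0.14 in ApoE KO and -0.017, -0.089 and 0.052 in WT (-0.11 ± 0.048). In both, ApoE KO replicate 2 was the highest knockout array and fell within the wild type range. Mrps28, a further protein of the small subunit, had -0.11, -0.13 and -0.15 in ApoE KO and -0.032, 0.039 and -0.057 in WT, without overlap (-0.11 ± 0.030).

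Mrps35 was the only other small subunit gene called lower. Its ratios were -0.13, -0.073 and -0.066 in ApoE KO and 0.017, 0.0044 and -0.0046 in WT, without overlap, and its fold change was -0.095 ± 0.020. The call held when ApoE KO replicate 1 was left out and was lost when any other array was, and also with centring, with trended and robust eBayes, with the replicate block and in the fit restricted to a level of at least 0.5.

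At the upper end, Mrps10 and Mrps18b were called higher. Mrps10, a protein of the head of the small subunit, read 0.25, 0.22 and 0.19 in ApoE KO and 0.023, 0.023 and 0 in WT. Its fold change of 0.21 ± 0.018 was the highest among the main probes of the family, and its groups were well apart. A dim second probe of Mrps33 had 0.26. With quantile normalization Mrps10 had 0.10, and another gene was highest at 0.13. The main probe of Mrps18b, 1 of the 3 mitochondrial relatives of bacterial S18, read 0.11, 0.11 and 0.11 in ApoE KO and 0, -0.045 and 0.023 in WT (0.12 ± 0.019). Its difference spanned 5.24 intensity steps, and the call was lost with the replicate block and when WT replicate 1 or any single ApoE KO array was left out.

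Mrps2, Mrps7 and Mrps36 were the next highest with a level of at least 0.5 and were not called; the dimmer Mrps18a had 0.089. Mrps2 read 0.053, 0.061 and 0.11 in ApoE KO and -0.012, 0.041 and -0.070 in WT, without overlap (0.087 ± 0.034). Mrps7, which helps to organise the head of the subunit, read 0.030, 0.078 and 0.044 in ApoE KO and -0.032, 0.016 and 0.032 in WT (0.045 ± 0.023). Mrps36, named as a ribosomal protein but now known as a part of the 2-oxoglutarate dehydrogenase complex, read 0.0082, 0.071 and 0.069 in ApoE KO and -0.0085, 0.016 and 0.025 in WT (0.039 ± 0.022). For the last 2 the groups overlapped.

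The 47 genes not described singly were not called. In the large subunit they were 19 genes with a level of at least 0.5, between -0.10 and 0.057, and 11 dimmer ones, between -0.095 and 0.11. In the small subunit they were 12 brighter genes, between -0.11 and 0.019, all of them with overlapping groups, and 5 dimmer ones, between -0.11 and 0.089. Of the 30 large subunit genes among them, 5 lay wholly above the WT values in ApoE KO and 2 wholly below.

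More than 1 probe was present for 10 genes, and for most of them the second was too dim to compare. The largest gap was that of Mrps18b, whose second probe, at a level of 0.0447, read -0.26, -0.22 and -0.32 in ApoE KO and 0 on every WT array. It was called lower (-0.27) while the main probe was called higher, but its whole difference spanned 0.794 of 1 intensity step. Mrps33 (a gap of 0.31) and Mrpl37 (0.25) also differed between a brighter and a dim probe. No gene had 2 probes with a level of at least 0.5 that differed by over 0.3.

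The subunits were set side by side as the median over their genes on each array. With a level of at least 0.5 and without Mrps12, the median log2 ratio of the 31 large subunit genes was -0.018, -0.020 and -0.016 in ApoE KO and 0, 0.011 and -0.014 in WT. That of the 23 small subunit genes was -0.095, -0.035 and -0.066 in ApoE KO and -0.012, 0.0044 and 0.017 in WT. The small subunit median was thus the lower of the pair on every knockout array, while in WT it was lower on 2 arrays and higher on 1. For comparison, the median of all probes with a level of at least 0.5 was -0.051, -0.046 and -0.051 in ApoE KO and 0, 0 and -0.014 in WT.

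Over all genes, the median fold change of the large subunit exceeded that of the small subunit by 0.058 on the log2 scale, and by 0.056 without Mrps12. On single arrays the large minus small difference was 0.078, 0.015 and 0.057 in ApoE KO (mean 0.050, SD 0.032, n = 3) and 0, 0.0062 and 0 in WT (mean 0.0021, SD 0.0036, n = 3). The groups did not overlap, but ApoE KO replicate 2 lay close to WT. On the WT arrays, 21.7% to 34.9% of the member probes had a ratio of exactly 0. With a level of at least 0.5 and without Mrps12, the difference was 0.077, 0.015 and 0.050 in ApoE KO (SD 0.031). In WT it was then 0.012, 0.0071 and -0.031 (SD 0.023), so only a small margin lay between the groups. Over all genes, the size of the difference depended on single arrays, from 0.098 when ApoE KO replicate 2 was left out to 0.033 when WT replicate 3 was. It was 0.0089 with quantile normalization, under which the small subunit median was -0.012 and that of the large subunit -0.0030.

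**Figure D4:**
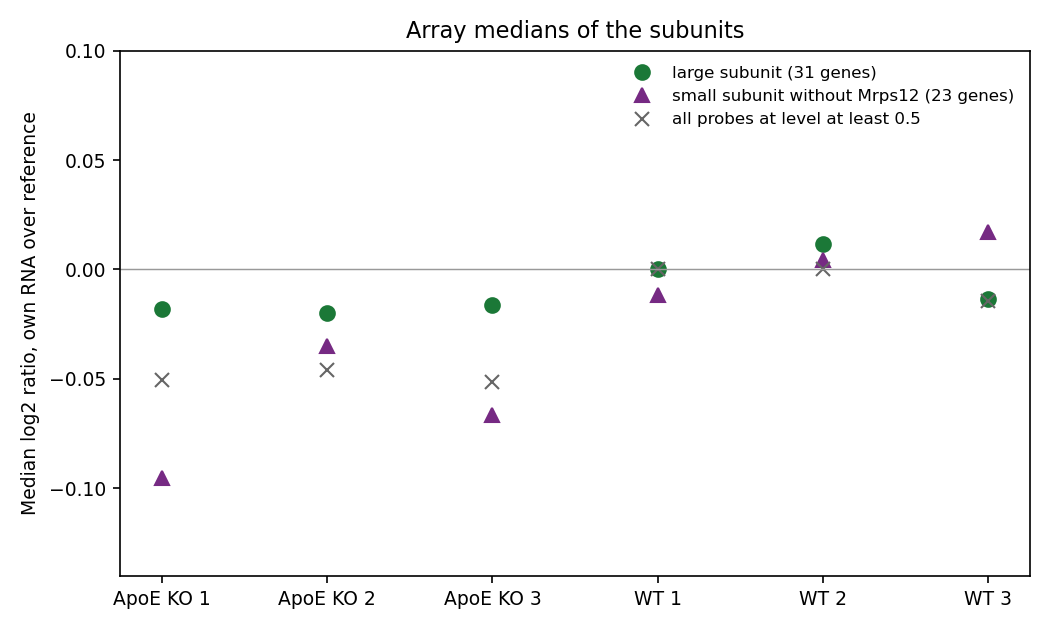
Median log2 ratio to the reference (y axis) on each of the 6 arrays (x axis) for the 31 large subunit genes, the 23 small subunit genes without Mrps12 and all 9496 probes, each with a level of at least 0.5. The small subunit median is the lowest of the 3 in ApoE KO replicates 1 and 3, at -0.095 and -0.066, and lies between the others in replicate 2.

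Genes that work with the mitochondrial ribosome were described from lists chosen with earlier results of these data known. The first list held 6 of its proteins whose symbols in the authors' table did not make them members (Dap3, Chchd1, Ptcd3, Aurkaip1, Gadd45gip1 and Mrpl58). Mrpl42 and Mrpl57, likewise no members, were not on this list. Of these 6, none was called by limma, nor was any at an unadjusted p under 0.05, and their median fold change was -0.020. Among 18 translation factors of mitochondria 1 was called, Gfm2, which splits ribosomes for recycling. Its log2 ratio was 0.53, 0.51 and 0.54 in ApoE KO and 0.047, -0.015 and 0 in WT, and its fold change of 0.52 ± 0.020 lay above that of every mitochondrial ribosomal protein gene. The median of these 18 was 0.066. It was 0.11 with centring and 0.020 with quantile normalization, and its sign turned among those with a level of at least 0.5 (-0.0056).

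The synthetase list held 21 genes, mitochondrial tRNA synthetases together with the amidotransferase subunits Qrsl1, Gatb and Gatc. Of these 21, Rars2 (arginine) was called higher at 0.11 ± 0.018. Pars2 (proline) and Iars2 (isoleucine) were called lower at -0.26 ± 0.019 and -0.10 ± 0.020. Iars2 was dim, with a level under 0.5 and a ratio of exactly 0 on every WT array, so rounding limits what its call shows. Of 29 assembly and ribosomal RNA processing factors 6 were called lower and 0 higher (2 higher at an unadjusted p under 0.05). They included Eral1, a chaperone of the small subunit RNA (-0.063), Dhx30, a helicase needed for assembly (-0.24), and Mpv17l2, a membrane protein of ribosome assembly (-0.16). Eral1 and Mpv17l2 had levels under 0.5, and Eral1 had a ratio of exactly 0 on every WT array. Rounding therefore limits what the calls of Eral1 and Mpv17l2 show. Of 16 factors of mitochondrial DNA upkeep and transcription none was called by limma (1 higher and 5 lower at an unadjusted p under 0.05). Beside these stand 6.44% of all probes called higher and 7.62% called lower. With a level of at least 0.5, 4 of 15 assembly and processing factors were called lower. In the synthetase list 1 of 8 such genes was called in each direction. Among all probes with a level of at least 0.5, 14.3% were called higher and 16.4% lower.

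The proteins of the cytosolic ribosome, which translates all nuclear messages, were also near 0. Of 68, 7 were called lower, among them Rpl26 (-0.10), Rpl31 (-0.16) and Rps27 (-0.20), and Rplp0 of the stalk was called higher (0.11). Their median fold change of -0.068 kept its sign with centring (-0.024) and with quantile normalization (-0.032). Of 82 subunits of the respiratory chain and ATP synthase encoded in the nucleus, 5 were called lower, among them the complex I subunits Ndufa2 (-0.21), Ndufa6 (-0.18) and Ndufb3 (-0.20). Called higher were 2, Cox5a of complex IV (0.39) and Ndufa1 of complex I (0.19). The median over the 82 was -0.016, which turned to 0.029 with centring and to 0.0089 with quantile normalization. With a level of at least 0.5, 1 of 57 cytosolic ribosomal genes was called higher and 7 lower. Of 69 such respiratory chain and ATP synthase genes, 2 were called higher and 5 lower. Among all probes with this level, 14.3% were called higher and 16.4% lower.

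**Figure D5:**
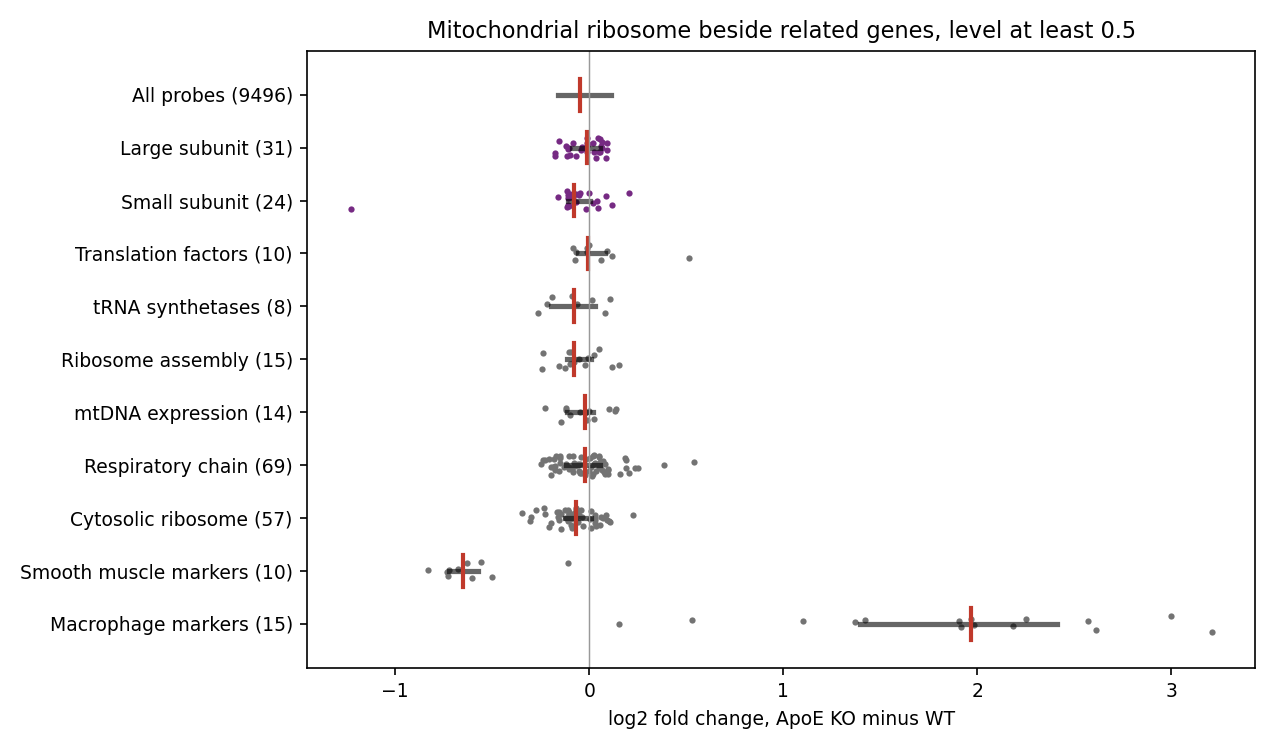
Log2 fold change, ApoE KO minus WT (x axis), of genes with a level of at least 0.5 in each list (y axis, number of genes or probes in brackets), with 1 point per gene, a bar between the quartiles and a red line at the median; all 9496 probes are shown by bar and median alone. Apart from Mrps12 at -1.23, the mitochondrial ribosome lists lie around 0, while most smooth muscle markers lie below and macrophage markers above it.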

How the data were processed

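Agilent arrays in 2 colours of 6 aortas were grouped by the genotype that the labels give for Cy5. Per the labels' protocols, 100 ng of Trizol-extracted RNA was amplified in repeated rounds, and such amplification can compress differences. Per the submitters' processing notes, the software was Agilent Feature Extraction 8.5.1.1; no source used here gives later steps. In a first deposited table the values are log10 ratios, own RNA over reference, and the authors' second deposited table holds intensity in both channels, of whose 18 columns of values 12 were not used. For 100.0% of 39485 probes the 3 C57BL6-headed arrays gave the WT ratios within 0.002 (4.88% with the sign turned, over 27448 probes away from 0); ApoE KO arrays carry the same dyes. The median ratio of all probes was 0 on every array, and whether the authors centred the deposited ratios is unknown.

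From the deposited log10 ratios, log2 ratios were computed and compared in R 4.3.3 with limma 3.58.1 (lmFit and eBayes; 4 residual and 0.55 prior degrees of freedom), after leaving out 194 of 39556 probes with a missing value. Level was the mean of a probe's reference intensity on the C57BL6-headed arrays and that intensity times its average ratio over all 6. Members and lists were chosen with earlier results of these data known. Genes outside the family were named through the RefSeq table (GRCm38.p6; 6982 probes by accession, 16553 by symbol, 2557 by synonym, 3964 by the name in the file, 9306 unnamed). Under the current names, 3 more probes, those of Mrpl42, Mrpl57 and Mrpl58, would join; they carry other symbols in the file and were no members. Named members were Mrps12, the 6 highest and 6 lowest large and 5 highest and 5 lowest small subunit genes with a level of at least 0.5, and every called probe; in each list, up to 3 called genes in order of p. The fit was also run on simulated data with a common spread for all probes and no shift of whole arrays. Such data cannot show how centring or normalization changes the calls. Alternatives were centring, quantile normalization, the level limit, 1 probe per symbol, trended and robust eBayes, array weights, a replicate block and leaving out each array.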

Additional observations from a re-analysis of the deposited data

How the results depend on the processing

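Of the member probes, 3 were called higher and 7 lower. With arrays centred on bright probes these counts were 9 and 4, with quantile normalization 0 and 2, and with array weights 5 and 7. Leaving out 1 array gave 1 to 4 higher (1 without ApoE KO replicate 1 or 3 or WT replicate 1) and 4 to 7 lower (4 without WT replicate 2). Over all probes, centring turned 2536 higher and 3001 lower calls into 3464 and 1900, and quantile normalization left 4.62% of probes called. The median of the 72 genes was 0.0053 with centring and -0.0051 with quantile normalization, and -0.047 to -0.032 with 1 array left out. The large minus small difference was 0.0089 with quantile normalization and 0.033 to 0.098 with 1 array left out. Mrps12 had a fold change of -1.06, and stood at -1.05 against the other small subunit genes, with quantile normalization; leaving out 1 array gave -1.25 to -1.20 and -1.17 to -1.14. The cause of these shifts was not tested. With the replicate block, 2 member probes were called higher and 4 lower, and 6.94% of all probes were called. Replicate numbers did not pair the arrays: deviations from the group means correlated at 0.086, -0.47 and -0.15 for equal numbers and between -0.43 and 0.61 for unequal ones. Fold changes of the named members other than Mrps12 stayed on the same side of the threshold in 272 comparisons with an alternative, passed it in 3 and lost it in 36. Only the genes called in the main fit, 3 higher and 5 lower, could lose a call, so all 36 losses were theirs. The 272 also count named genes that had no call to lose. Ratios of the 27 member probes with a level under 0.5 are limited by the rounding of intensities.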

Other observations

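Mrps12 and Apoe were among the lowest genes on chromosome 7, where the values of other genes were also counted. Bcam, which lies between them, was lower than both (-1.24 ± 0.085, SE, level 32.0, called lower). Zfp111, also between them, had -0.97 at a level of 0.0889, and Zfp74, beyond Mrps12, had -0.98 at 0.551. Both were called lower, and these genes were chosen after their values were seen. Among genes with a level of at least 0.5, 7 of the 59 between Apoe and Mrps12 were called higher and 14 lower (23.7%), with a median fold change of -0.097. Within 50 measured genes of Mrps12 on either side, a stretch that overlaps both this region and the next, 5 of 47 were called higher and 14 lower (29.8%, median -0.093). Outside the region between Apoe and Mrps12, the chromosome had 77 of 539 called higher and 127 lower (23.6%, median -0.083), and on the other chromosomes 1098 of 6902 higher and 1155 lower (16.7%, median -0.033). A fold change of -0.8 or lower was found in 1 of the 59 genes (Bcam), 2 of the 539 and 13 of the 6902. The 2 were Ppp1r14a (-0.81, level 0.584) and Zfp74, which lie 23 and 32 measured genes beyond Mrps12. They were named after their values were seen, and the cause was not tested. The 5 other mitochondrial ribosomal protein genes on chromosome 7 were Mrpl23 (-0.15, called lower), Mrps11 (-0.11), Mrpl48 (-0.095), Mrpl17 (-0.069) and Mrpl46 (0.052), the last 4 not called.

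Fat lists moved in part. Of 10 fat markers, Lpl, the lipoprotein lipase, was called higher (1.62) and Lep, the hormone leptin, lower (-0.14), while 8 were not called and the median fold change was -0.017. Lep was dim, with a level of 0.0945 and a ratio of exactly 0 on every WT array, so rounding limits what its call shows. Of the 4 fat markers with a level of at least 0.5, 1 was called higher (Lpl) and 0 lower, and their median was 0.40. The summed level of the list was 102 to 106 in ApoE KO and 43.6 to 51.8 in WT, of which Lpl alone held 73.8 to 77.6 and 22.9 to 26.8; without Lpl the sums were 28.3 to 30.2 and 20.6 to 27.9. Of 10 brown fat markers, Prdm16 and Dio2 were called lower (both -0.52), with a summed level of 38.1 to 45.0 in ApoE KO and 42.3 to 47.3 in WT. Of 10 endothelial markers, Sox17 (0.53), Vwf (0.47) and Esam (0.18) were called higher, of which Vwf was dim (level 0.161). Over all probes 6.44% were called higher and 7.62% lower, and 14.3% and 16.4% of those with a level of at least 0.5. None of 10 skeletal muscle markers was called by limma (1 higher at an unadjusted p under 0.05), and their summed level was 2.24 to 4.62 in ApoE KO and 1.90 to 2.75 in WT.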
